A study of Mus musculus with 8 samples.

Results

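The genes described here handle ATP and adenosine outside the cell. They are Panx1, P2rx4, P2rx7, P2ry6, Entpd1, Nt5e, Ada, Adora2a and Adora2b, 9 of the 57132 genes in the count table, taken by symbol, and each was on 1 Ensembl identifier. All 9 passed the filter on low counts. They were measured in bulk, rRNA-depleted RNA from subcutaneous KPC tumours, a mouse model of pancreatic cancer. The PDT group holds 4 samples of tumours treated by targeted photodynamic therapy with Ce6@D4-EV, the submitters' name for the agent. Ce6 is chlorin e6, a photosensitiser, which under light turns oxygen into reactive species. The PBS group holds 4 samples of tumours treated with PBS, a buffered saline. Whether the PBS tumours were also lit is not stated in the labels, so PDT minus PBS compares the treatments as labelled. Neither strain and age nor the time from treatment to harvest could be read from the labels. The tissue is labelled as sorted with no gate named, and whether each sample is its own animal is not stated. The p-values therefore measure the spread between these samples, which may be technical.

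ATP is kept at high concentration inside cells and reaches the outside when cells are stressed or die, in part through pannexin channels. There it binds P2X ion channels and P2Y receptors, which alert phagocytes and can start inflammasome signalling. Membrane enzymes then strip its phosphates until adenosine is left, which binds its own receptors and damps immune cells, until it is taken up or deaminated. Tumour cells, fibroblasts, vessels and immune cells can each carry parts of this chain.

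Libraries held 39026840 to 48804713 reads in PDT and 35742024 to 40337306 reads in PBS. PBS 1 stood apart on the first principal component (25% of variance) at -111.5, against 16.1 to 37.2 in PDT and -8.5 to 4.3 in the other PBS libraries, so member values are also given without it. The epithelial genes Epcam, Krt8, Krt18, Krt19 and Cdh1 were detected, with summed levels of 2870 to 5690 CPM in PDT and 3270 to 6750 CPM in PBS. CPM are counts-per-million of the scaled library. A count of 0 would allow at most 3 reads, or 0.0872 CPM in the shallowest library. The fewest reads of any member in a library were 56, for Adora2b in PBS 3. Counting error is larger at such counts than for the members with more reads. Over all genes, 39 of 16588 passed an adjusted p of 0.05 by edgeR a background of 0.235%, with 27 higher in PDT (0.163%) and 12 lower (0.0723%).

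Of the 9 members, 0 passed that threshold by edgeR. At an unadjusted p under 0.05 there were 4, P2rx4, P2ry6, Entpd1 and Ada, all higher in PDT, where 16.5% of all tested genes reached that level and 8.63% did so higher in PDT. P2rx4, Entpd1 and Ada also had no overlap between the groups, against 10.1% of all tested genes without overlap and 5% without overlap and higher in PDT. DESeq2 called 1 member, P2rx4, where it called 6.92% of 12709 genes and 4.13% higher in PDT. Limma-voom called 0 members, where it called 1.01% of genes and 0.603% higher in PDT. Log2 differences were above 0 for 7 of the 9 members, against 49.8% of all tested genes, and below 0 for Nt5e and Panx1. The median of the 9 was 0.27, against -0.00 over all tested genes.

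**Figure D1:**
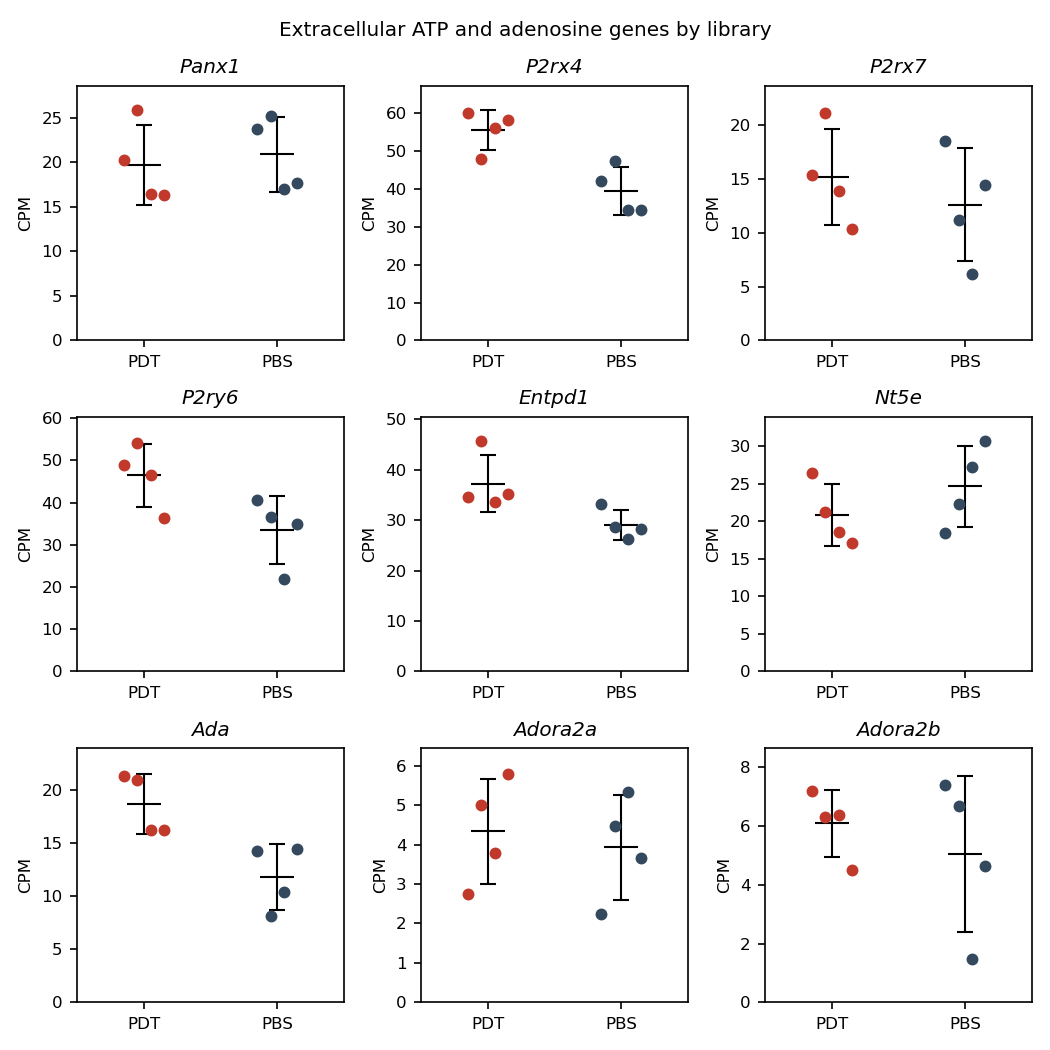
Levels of the 9 genes in CPM (vertical axes, from 0) in the 4 PDT libraries (red, left) and the 4 PBS libraries (dark, right); points run from replicate 1 to 4 by name, and black marks give mean and SD. P2rx4, Entpd1 and Ada show no overlap between groups, while Panx1, P2rx7, P2ry6, Nt5e, Adora2a and Adora2b do.

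P2rx4 and P2rx7 are neighbours on chromosome 5, on the same strand with 1 annotated gene between them, and encode related ATP-gated channels. Their promoter windows are shown because the groups did not overlap for P2rx4 and did for P2rx7. Neither this contrast between the genes nor the part of any motif in it was tested. The windows run from 250 bases before a start site to 50 after it, from RefSeq on GRCm38.p6. Capitals mark GAGGAA or its reverse complement, a form of the ETS family core bound by the myeloid factor PU.1. Other forms of the ETS core, which share GGAA, were not searched or marked.
P2rx4, chr5:122707294-122707593, plus strand: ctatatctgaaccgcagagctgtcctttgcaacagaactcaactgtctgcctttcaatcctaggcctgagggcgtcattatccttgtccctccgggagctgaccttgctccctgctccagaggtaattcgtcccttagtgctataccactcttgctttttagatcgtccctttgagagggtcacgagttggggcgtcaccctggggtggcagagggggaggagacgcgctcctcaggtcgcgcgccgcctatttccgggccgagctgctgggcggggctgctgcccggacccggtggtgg
P2rx7, first listed start, chr5:122643677-122643976, plus strand: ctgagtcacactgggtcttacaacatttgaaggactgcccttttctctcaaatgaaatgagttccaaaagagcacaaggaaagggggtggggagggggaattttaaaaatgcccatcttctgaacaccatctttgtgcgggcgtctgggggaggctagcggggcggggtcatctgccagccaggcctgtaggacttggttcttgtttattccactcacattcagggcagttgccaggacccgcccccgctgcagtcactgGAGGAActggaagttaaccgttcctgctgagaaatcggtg
P2rx7, second listed start, chr5:122650133-122650432, plus strand: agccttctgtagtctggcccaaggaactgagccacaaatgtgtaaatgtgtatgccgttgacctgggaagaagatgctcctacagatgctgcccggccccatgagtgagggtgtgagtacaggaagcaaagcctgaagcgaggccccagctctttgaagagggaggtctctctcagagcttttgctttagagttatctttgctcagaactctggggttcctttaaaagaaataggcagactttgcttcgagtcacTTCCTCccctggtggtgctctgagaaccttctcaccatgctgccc
The P2rx4 window held no GAGGAA on either strand, though it held the shorter GGAA on the reverse strand. Each P2rx7 window held 1 GAGGAA, at base 261 of the first and, on the reverse strand, at base 256 of the second. Of 32851 promoter windows of this length, 28.3% held the motif. Windows were listed for 7 of the 9 members, with none for Adora2a and P2ry6. Beside P2rx7, only Entpd1 held GAGGAA, with 2 in the window of its second start. ACGTG, a form of the hypoxia response core, was searched on both strands too. It was absent from every listed member window and present in 19.6% of all windows. The other form, GCGTG, was not searched, so absence of ACGTG does not mean that a window lacks the core. A match is a run of letters, not a shown binding site.

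Among the ATP and UDP receptors, P2rx4 (ENSMUSG00000029470), a cation channel of macrophages and other cells that responds to low ATP, was at 59.9, 47.9, 56.0 and 58.2 CPM in PDT 1 to PDT 4, against 42.1, 47.25, 34.5 and 34.3 CPM in PBS 1 to PBS 4. The groups did not overlap, although PDT 2 and PBS 2 lay within 1 CPM of each other. The difference was 0.49 ± 0.14 on the log2 scale (SE; 1.40-fold; 95% interval 0.18 to 0.80), with an adjusted p of 0.124 by edgeR and 0.0481 by DESeq2. It was 0.52 without PBS 1 and 0.43 to 0.59 with any one library left out. In bulk tissue, more cells of a type and more RNA per cell cannot be told apart.

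P2rx7 (ENSMUSG00000029468), the channel that opens at high ATP and can start inflammasome assembly, was at 15.3, 21.1, 13.9 and 10.3 CPM in PDT and at 18.6, 11.2, 6.15 and 14.4 CPM in PBS. The groups overlapped widely, with the highest value in PDT 2 and the lowest in PBS 3. The log2 difference was 0.27 ± 0.32 (SE; 95% interval -0.42 to 0.96; adjusted p = 0.742 by edgeR), and it ran from 0.05 without PBS 3 to 0.52 without PBS 1. Scaled by exon length, P2rx4 exceeded P2rx7 by 1.93 to 4.80 times in PDT and by 1.93 to 4.76 times in PBS, so their ratio varied as much inside a group as between groups.

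P2ry6 (ENSMUSG00000048779), a receptor for UDP that drives engulfment in mouse microglia, was at 48.9, 54.2, 46.6 and 36.3 CPM in PDT, against 40.7, 36.6, 21.98 and 34.8 CPM in PBS. The overlap came from PDT 4, which lay under PBS 1 and PBS 2. The log2 difference was 0.47 ± 0.19 (SE; 1.39-fold; 95% interval 0.05 to 0.89; adjusted p = 0.251 by edgeR), 0.58 without PBS 1 and 0.32 without PBS 3. Correcting for GC and length, a setting added after the data were seen, took it to 0.22.

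Panx1 (ENSMUSG00000031934), a channel that releases ATP from dying cells, was at 20.2, 25.9, 16.4 and 16.3 CPM in PDT and at 23.7, 25.2, 16.9 and 17.7 CPM in PBS. The groups covered nearly the same range, each with 2 libraries under 18 CPM. On the log2 scale they differed by -0.08 ± 0.20 (SE; adjusted p = 0.892 by edgeR), with an interval of -0.53 to 0.36. It was -0.015 without PBS 1, and its sign turned without PBS 2 and without PDT 4.

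The log2 differences of the 2 enzymes that turn ATP into adenosine had opposite signs. Neither passed the threshold by edgeR, and the interval of Nt5e spanned both signs. Entpd1 (ENSMUSG00000048120), which encodes CD39 and cuts ATP and ADP to AMP, was at 34.6, 45.7, 33.5 and 35.2 CPM in PDT, against 33.1, 28.6, 26.2 and 28.2 CPM in PBS. No PBS library reached the lowest PDT value, but PDT 3 and PBS 1 were nearly level. The log2 difference was 0.36 ± 0.14 (SE; 1.28-fold; 95% interval 0.04 to 0.67; adjusted p = 0.239 by edgeR), and it was 0.43 without PBS 1 and 0.26 without PDT 2.

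Nt5e (ENSMUSG00000032420), which encodes CD73 and cuts AMP to adenosine, was at 26.4, 21.15, 18.55 and 17.1 CPM in PDT and at 18.4, 22.2, 27.2 and 30.65 CPM in PBS. The groups overlapped, with the lowest value in PDT 4 and the highest in PBS 4. The change was -0.24 ± 0.20 (SE; 95% interval -0.68 to 0.19; adjusted p = 0.6 by edgeR), -0.36 without PBS 1 and -0.11 without PBS 4. Per kilobase of exon, the ratio of Entpd1 to Nt5e was 2.02, 3.33, 2.78 and 3.18 in PDT, against 2.78, 1.98, 1.49 and 1.42 in PBS. This ratio, chosen after the values were seen and not tested, was higher on average in PDT, but PDT 1 lay inside the PBS range and PBS 1 was level with PDT 3.

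Ada (ENSMUSG00000017697), the deaminase that turns adenosine into inosine, had the largest log2 difference of the 9 in the edgeR fit. It was at 21.3, 20.9, 16.23 and 16.25 CPM in PDT, against 14.2, 8.11, 10.4 and 14.4 CPM in PBS. The groups did not overlap, and the nearest libraries were PDT 3 and PBS 4. Its log2 difference was 0.66 ± 0.22 (SE; 1.58-fold; 95% interval 0.20 to 1.13; adjusted p = 0.157 by edgeR and 0.0704 by DESeq2). It was 0.77 without PBS 1 and 0.52 to 0.79 with any one library left out, and 0.36 after the correction for GC content and length.

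The adenosine receptors had the largest standard errors of the 9 members. Adora2a (ENSMUSG00000020178), which raises cyclic AMP in T cells and myeloid cells, was at 2.75, 4.995, 3.79 and 5.79 CPM in PDT and at 2.23, 4.48, 5.34 and 3.66 CPM in PBS. Its log2 difference was 0.14 ± 0.36 (SE; adjusted p = 0.9 by edgeR), with an interval of -0.66 to 0.94, and it was -0.05 without PBS 1, -0.02 without PDT 4 and -0.12 after the GC and length correction. The groups thus covered nearly the same range and gave no stable direction.

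Adora2b (ENSMUSG00000018500), a receptor that responds to higher adenosine and is induced by hypoxia, was at 7.18, 6.32, 6.38 and 4.50 CPM in PDT and at 7.40, 6.675, 1.47 and 4.65 CPM in PBS. PBS 3 held 56 reads, against 160 to 280 in the other PBS libraries and 184 to 324 in PDT. The log2 difference of 0.27 ± 0.42 (SE; 95% interval -0.65 to 1.19; adjusted p = 0.817 by edgeR) rested on that library and was -0.03 without it, as it was -0.008 after the GC and length correction. Without PBS 1 it was 0.52. Per kilobase, Adora2b exceeded Adora2a in 7 of the 8 libraries, the exception being PBS 3.

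Several members shared their extreme libraries. PBS 3 was the lowest of the 8 libraries for 4 members (P2rx7, P2ry6, Entpd1 and Adora2b), and PDT 2 was the highest for 4 (Panx1, P2rx7, P2ry6 and Entpd1). P2rx4 and Ada were instead highest in PDT 1, and lowest in PBS 4 and PBS 2. How many of all tested genes had these extreme libraries was not counted, so whether the member counts are unusual cannot be said. The summed level of the 10 macrophage and monocyte markers was 1979, 1990, 1630 and 1752 CPM in PDT, against 1520, 1275, 745 and 1196 CPM in PBS. This sum was lowest in PBS 3 and highest in PDT 2, which was nearly level with PDT 1. All 10 were above 0 in log2 difference (median 0.75), none was at 0 reads in all libraries, and 1, the lysosomal gene Cd68, passed (0.85 ± 0.15, SE, adjusted p = 0.0497 by edgeR). The Cd68 call was lost whichever library was left out (adjusted p = 0.0527 to 0.163 by edgeR) and after the GC and length correction (0.174). At an unadjusted p under 0.05 by edgeR there were 8 of the 10, all higher in PDT, against 8.63% of all tested genes. Without overlap and higher in PDT there were 6, against 5%. DESeq2 called 6 of the 10 markers and limma-voom 3. Neutrophil markers, above 0 in 6 of 6, summed to 119 to 403 CPM in PDT and 55.5 to 159 CPM in PBS. T and NK cell markers, above 0 in 6 of 7, summed to 13.8 to 15.1 CPM in PDT and 5.31 to 11.9 CPM in PBS. Platelet markers, above 0 in 3 of 4, summed to 258 to 570 CPM in PDT and 110 to 264 CPM in PBS. Most of this sum was Pf4, at an average of 345 CPM in PDT and 147 CPM in PBS. Log2 differences were 1.23 ± 0.32 for Pf4, 1.19 ± 0.31 for Ppbp, 0.32 ± 1.21 for Gp9 and -0.34 ± 0.45 for Itga2b (SE). Fibroblast markers, above 0 in 3 of 6, summed to 6728 to 7518 CPM in PDT and 4233 to 7967 CPM in PBS. Endothelial markers, above 0 in 3 of 5, summed to 59.0 to 76.8 CPM in PDT and 58.6 to 69.85 CPM in PBS, and red cell markers, below 0 in 4 of 4, to 528 to 1214 CPM in PDT and 714 to 3822 CPM in PBS. No gene of these lists passed by edgeR, and none was at 0 reads in all libraries. At an unadjusted p under 0.05 there were 4 neutrophil, 2 platelet, 1 T and NK cell and 1 fibroblast markers higher in PDT and 2 red cell markers lower. DESeq2 called 1 neutrophil, 1 platelet and 1 fibroblast marker, and limma-voom 1 neutrophil and 2 platelet markers. The part of any of these cell types in the member differences was not tested.

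**Figure D2:**
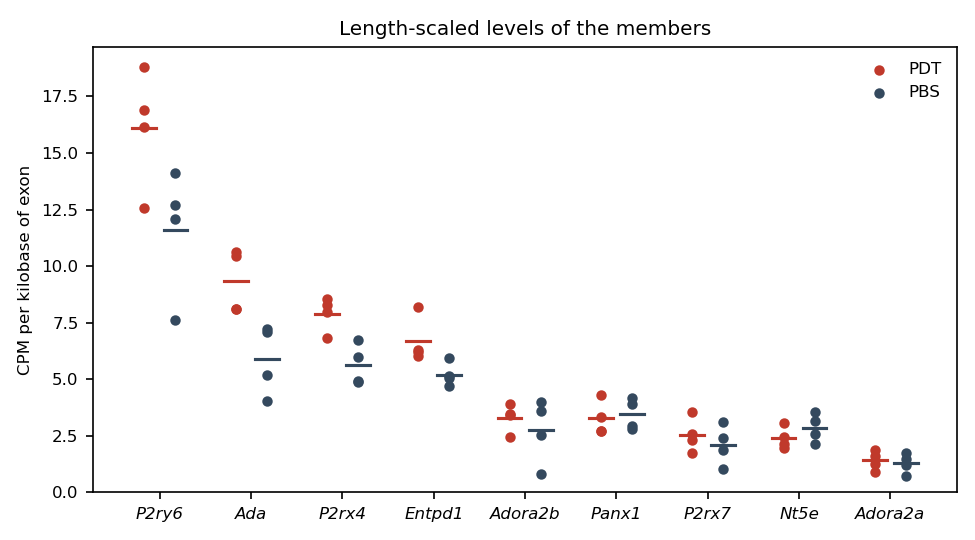
CPM per kilobase of exon (vertical axis, from 0) for the 9 genes, ordered by their PDT mean; points are libraries of PDT (red, left of each pair) and PBS (dark, right), and lines are means. P2ry6 stands above the rest and Adora2a is lowest in both groups.

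Levels of different genes are compared here per kilobase of exon. P2ry6 was the most abundant member, at 16.1 ± 2.60 CPM per kilobase in PDT and 11.6 ± 2.80 in PBS (SD, n = 4), and lay above Ada in each of the 8 libraries. Ada averaged 9.33 in PDT and 5.89 in PBS, P2rx4 averaged 7.90 in PDT and 5.63 in PBS, and Entpd1 averaged 6.68 in PDT and 5.21 in PBS. The ranges of neighbours among these 3 overlapped in both groups. A gap followed in both groups, and the ranges of Adora2b, Panx1, P2rx7 and Nt5e then overlapped from one to the next, with averages of 3.30 to 2.42 in PDT and, in another order, 3.46 to 2.11 in PBS. Adora2a was lowest, at 1.42 ± 0.44 in PDT and 1.28 ± 0.43 in PBS. By their means, the first 4 ranks and the last were the same in both groups. In PBS the range of Adora2a overlapped that of P2rx7, and in PBS 3 Adora2a lay above P2rx7 and Adora2b.

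Of 35 other pathway genes, 29 were tested, and 0 passed by edgeR. Their log2 differences were above 0 for 8 and below 0 for 21, with a median of -0.18. One, Slc29a1, had an unadjusted p under 0.05, lower in PDT, where the background in that direction was 7.87%. DESeq2 called the same gene alone, and limma-voom called 0.

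Slc29a1, the main equilibrative transporter that carries adenosine across the membrane, was at 47.1, 51.2, 59.6 and 63.4 CPM in PDT, against 64.0, 86.45, 87.4 and 92.5 CPM in PBS. The groups did not overlap, though PDT 4 and PBS 1 were almost equal, and 5.12% of all tested genes were lower without overlap. Its log2 difference was -0.58 ± 0.15 (SE; 95% interval -0.91 to -0.25; adjusted p = 0.102 by edgeR), with 0.0159 by DESeq2 and 0.0461 by edgeR after the GC and length correction. Slc28a2, a sodium-coupled nucleoside carrier, differed by -0.43 ± 0.26. Ada and Slc29a1 thus differed in opposite directions. Per kilobase, their ratio was 0.906, 0.817, 0.546 and 0.513 in PDT, against 0.444, 0.188, 0.238 and 0.312 in PBS. That the ratio did not overlap follows from the single genes, which each had no overlap and in opposite directions, and adds nothing to them. This pair was chosen after the values were seen, so the ratio is given with no test.

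Among other ATP release routes, all 4 tested genes were below 0. Gja1, the connexin of many gap junctions, was at 73.6 ± 13.6 CPM in PDT and 89.0 ± 9.47 CPM in PBS (SD, n = 4; log2 difference -0.27 ± 0.15, SE, adjusted p = 0.407 by edgeR). Gjb2, another connexin, had 10 to 66 reads in PDT and 2 to 316 reads in PBS, with a log2 difference of -1.71 ± 1.01 that was -0.41 without PBS 3. The pannexin Panx3 had 0 reads in all libraries and Panx2 at most 8, both too low to test.

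The remaining P2X receptors were scarce. P2rx6 had 46 to 90 reads in PDT and 6 to 44 in PBS (log2 difference 1.21 ± 0.78, SE, adjusted p = 0.487 by edgeR), and P2rx1, the channel of platelets and smooth muscle, had 2 to 46 in PDT and 0 to 104 in PBS. Of 6 tested P2Y receptors, 4 were above 0, with a median log2 difference of 0.37. P2ry13, an ADP receptor of myeloid cells, was at 7.43 ± 2.56 CPM in PDT and 4.03 ± 2.38 CPM in PBS (SD, n = 4), a log2 difference of 0.88 ± 0.48 (adjusted p = 0.401), while P2ry10, a lipid receptor of lymphocytes grouped with P2Y receptors by sequence, differed by -0.85 ± 0.49. P2ry10 was highest in PBS 1 at 10.9 CPM, and differed by -0.54 without it and by -1.50 without PDT 2.

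Of 7 other ectonucleotidase genes, 6 were below 0. Enpp1, which cuts ATP to AMP and also degrades the STING ligand cGAMP, was at 52.8, 83.7, 51.1 and 52.8 CPM in PDT, against 73.3, 96.5, 64.1 and 80.5 CPM in PBS. Only PDT 2 reached into the PBS range, and the log2 difference was -0.39 ± 0.19 (SE; 95% interval -0.80 to 0.02; adjusted p = 0.33 by edgeR). Enpp3, of basophils and mast cells, was the exception at 0.59 ± 0.40. The 2 other adenosine receptors had few reads, with 8 to 63 reads for Adora1 in PDT and 0 to 112 in PBS, and 30 to 64 for Adora3 in PDT and 26 to 55 in PBS.

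**Figure D3:**
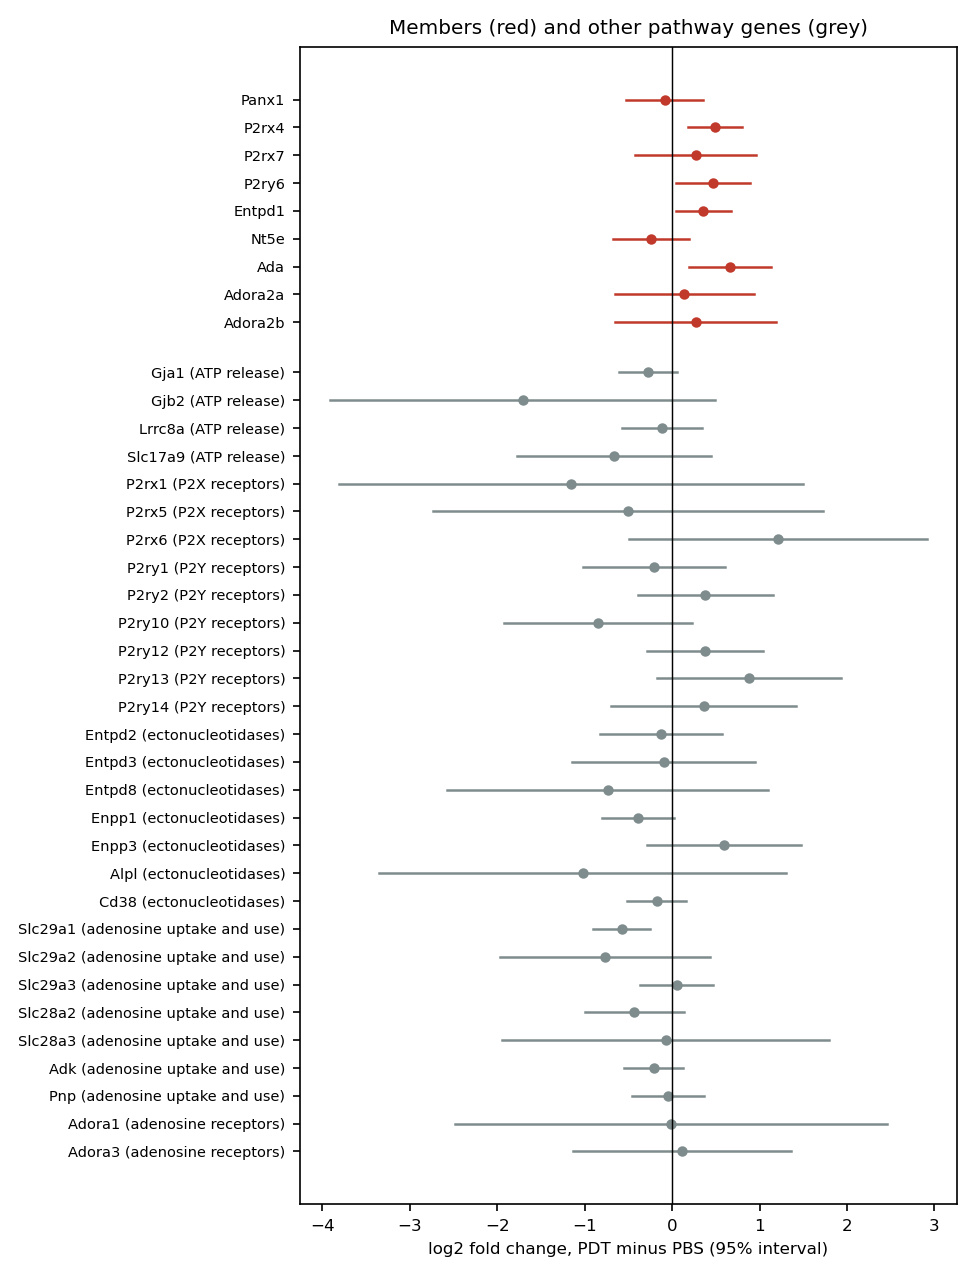
Log2 fold changes, PDT minus PBS (horizontal axis), with 95% intervals from edgeR for the 9 members (red) and the 29 other tested pathway genes (grey, role in brackets). The intervals of P2rx4, P2ry6, Entpd1 and Ada lie above 0 and that of Slc29a1 below it, before adjustment over all genes.

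Inflammasome genes, which act downstream of the P2X7 channel, were mostly above 0, in 6 of 7, with a median log2 difference of 0.57 and 0 past the threshold by edgeR. At an unadjusted p under 0.05 there were 4, all higher in PDT, against 8.63% of all tested genes. DESeq2 called 1, Pycard, where it called 4.13% of genes higher. Pycard, the adaptor, was at 35.1, 23.4, 24.3 and 21.8 CPM in PDT, against 18.2, 15.3, 11.8 and 16.5 CPM in PBS (log2 difference 0.76 ± 0.20, SE, adjusted p = 0.1 by edgeR, 0.0178 by DESeq2). Nlrp3, the sensor, was at 6.43, 4.89, 8.97 and 6.21 CPM in PDT, against 4.52, 3.48, 3.42 and 4.22 CPM in PBS (0.76 ± 0.28, adjusted p = 0.199). Neither gene overlapped between groups, as for 5% of all tested genes in that direction, whereas P2rx7 itself did. Hypoxia-induced genes, a class to which Nt5e and Adora2b belong, were above 0 in 3 of 10 with a median of -0.15, and 0 passed by edgeR, with 1 in each direction at an unadjusted p under 0.05 and 0 called by DESeq2. These were Slc2a1, the glucose transporter, at -0.62 ± 0.27 (adjusted p = 0.288), and Adm, a vasodilator peptide gene, at 0.64 ± 0.27 (adjusted p = 0.259).

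For each member, the gene with the most alike profile was sought among 13207 genes that averaged at least 1 CPM, without provisional gene names, by the root mean square difference of log2 CPM over the 8 libraries after scaling each profile to mean 0 and SD 1. P2rx4 was closest to Kcnab2 (0.135), P2rx7 to Pip4k2a (0.146) and P2ry6 to Ms4a4c (0.17). Ada was closest to Psmc4 (0.186), Adora2b to Srpx (0.197), Entpd1 to Pus7l (0.218) and Nt5e to Mir703 (0.278). Panx1 with Tanc2 (0.306) and Adora2a with Zfp64 (0.346) had the least alike partners. The median difference of a member from all genes was 1.40 to 1.43. No member was the closest gene of another.

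**Figure D4:**
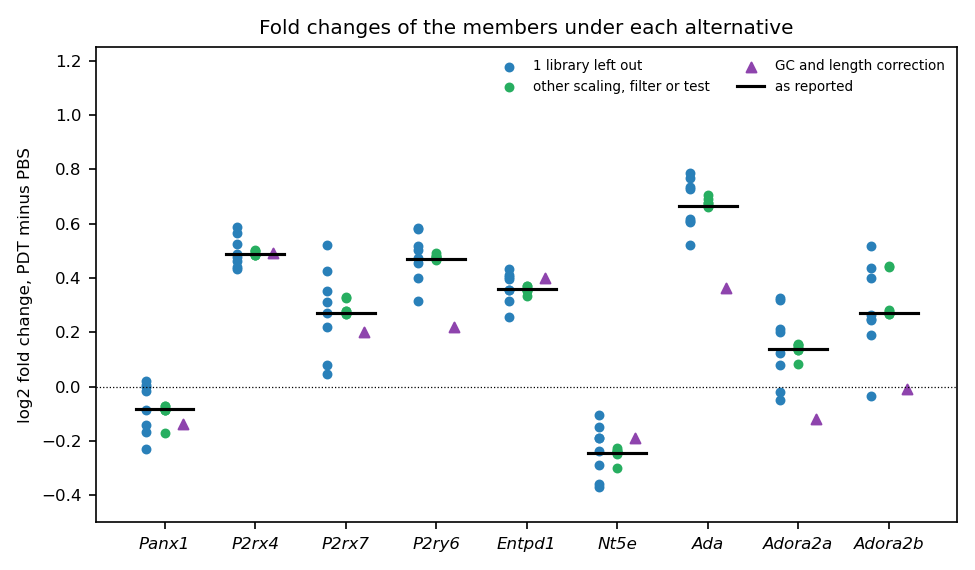
Log2 fold changes, PDT minus PBS (vertical axis), of the 9 genes as reported (black lines), with 1 library left out (blue), under other scalings, filters and tests (green) and after the GC and length correction (purple). P2rx4, P2rx7, P2ry6, Entpd1 and Ada stay above 0 and Nt5e below 0 throughout, while Panx1, Adora2a and Adora2b cross 0.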

How the data were processed

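Bulk RNA was read from 4 PDT and 4 PBS tumour samples. Values are raw counts of reads per gene, deposited by the authors for 57132 Ensembl identifiers with symbols. The submitters' processing notes name STAR 2.7.11b, Cutadapt 4.6 and the build GRCm39. The labels' protocols describe a directional library kit. What counted the reads, with which strand setting and annotation, is not given in the sources used here. Of the gene counts from 1 to 20, 77.9% to 83.8% per library were even, so an alternative divided all counts by 2.

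Counts were filtered with filterByExpr (16588 genes), scaled by trimmed means (TMM) and tested as PDT minus PBS with edgeR 4.0.16 (R 4.3.3), using its quasi-likelihood test with no covariate and Benjamini-Hochberg adjustment over all tested genes at 0.05. The fit was checked on simulated counts. Standard errors are the log2 difference over the root of F, and intervals cover 95%. Counts-per-million (CPM) use the scaled library. Exon lengths and GC content came by identifier from GENCODE M21, an annotation of the preceding build, and promoter windows from RefSeq (GRCm38.p6). The alternatives, with DESeq2 1.42.0 and limma 3.58.1 among them, are described at the end. The correction for GC content and transcript length, with splines of 4 degrees of freedom per library, was added after the data were seen. The members, the lists of other genes and the tests were chosen with earlier results of these data known. Named beside the members are, of each pathway and context list, genes past the threshold and the 2 with the smallest p. Panx2 and Panx3, too low to test, are named outside this rule, chosen after their values were seen. A chi-square over genes separated all 28 pairs of libraries (62.1 to 191 per degree of freedom), and none was counted as a duplicate.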

Additional observations from a re-analysis of the deposited data

Results flagged for a closer look

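Among 50 groups of 4 libraries checked, 2 held a library far from the other 3, judged by its gap to the nearest over the range of the group (Dixon's test at 95%). Chance gives about 1 in 20 such groups, so 2 of 50 is no more than chance would give. Both were in PDT 2. Entpd1 was at 45.7 CPM there and at 33.5 to 35.2 CPM in the other PDT libraries, a gap of 0.865 of the range. Enpp1, another ectonucleotidase, was at 83.7 CPM in PDT 2 and at 51.1 to 52.8 CPM in the others, a gap of 0.947 of the range. Both genes were thus highest in the same treated library. Without PDT 2, the log2 difference of Entpd1 was 0.26 ± 0.15 and that of Enpp1 was -0.58 ± 0.16 (SE), with adjusted p-values of 0.427 and 0.102 by edgeR. The 4 skeletal muscle markers had a sum of 2816 CPM in PDT 2, against 113 to 587.5 CPM across PDT 1, PDT 3 and PDT 4. A high sum was also seen in PBS 2, at 1192 CPM, against 42.97 to 297.5 CPM across PBS 1, PBS 3 and PBS 4. The part of muscle in the values of Entpd1 and Enpp1 was not tested.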

How the results depend on the processing

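Over 17 alternatives, 6 members kept their direction and 3 did not. With 1 library left out, log2 differences ran from -0.230 to 0.022 for Panx1, -0.051 to 0.325 for Adora2a and -0.033 to 0.516 for Adora2b. The GC and length correction gave -0.12 for Adora2a and -0.008 for Adora2b. No member was called by edgeR or limma-voom under any alternative, and DESeq2 called 1, P2rx4 (0.49). Adjusted p-values of P2rx4 ran from 0.0481 to 0.275, of Ada from 0.0704 to 0.501, of Entpd1 from 0.182 to 0.427 and of P2ry6 from 0.167 to 0.699.

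The number of genes called among all tested, 39 in edgeR, was 69 with upper quartile scaling, 67 with counts divided by 2, 88 with a filter of 1 CPM in 4 samples, 534 with no filter, 14 with the GC and length correction, 167 by limma-voom, 879 by DESeq2, and 0 to 122 with 1 library left out. It was 0 without PDT 1 and without PBS 3, where 2162 and 2349 genes had an unadjusted p under 0.05, 3 without PDT 3 and without PDT 4, 4 without PBS 2, 10 without PBS 1, 112 without PDT 2 and 122 without PBS 4. The deviations of same-numbered samples from their group means correlated at 0.0385 to 0.069. Samples of unlike number were not compared in this way, so these values do not settle whether the samples were paired. With the replicate number as a block, 182 genes and 0 members were called. The cause of these shifts was not tested.

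Of 16 other named genes, 2 gained a call, Pycard with no filter (adjusted p = 0.036 by edgeR) and by DESeq2 (0.0178), and Slc29a1 by DESeq2 (0.0159) and after the GC and length correction (0.0461 by edgeR). In direction, 3 changed. P2rx1 was at 0.205 by limma-voom. Adora3 was at -0.011 after the GC and length correction and at -0.034 to 0.429 with 1 library left out. Adora1 was at 0.006 with upper quartile scaling, 0.003 with no filter, 0.835 with the replicate block, 1.15 by limma-voom and -0.421 to 1.486 with 1 library left out. With 4 libraries a group, the 95% interval of the log2 difference still reached from -0.66 to 0.94 for Adora2a and from -0.65 to 1.19 for Adora2b.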
